A study of Mus musculus with 4 samples.

Results

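Fibroblasts of 4T1 tumours in which a transcript of Lrrc15 was counted were described across the libraries of a single-cell RNA sequencing data set. A cell was taken as a member when it held at least 300 genes, at most 15% mitochondrial unique molecular identifiers (UMIs, each of which tags 1 transcript molecule), at least 1% of its UMIs from Col1a1, Col1a2 and Col3a1, at least 1 UMI of Dcn and of Lrrc15, no UMI of Ptprc, which encodes the leucocyte protein CD45, and fewer than 3 UMIs of the pericyte gene Rgs5. Of 33064 barcodes, 32133 passed the filter on genes and mitochondrial UMIs and 694 were members, 2.16% of the kept cells (exact 95% interval 2.004 to 2.32%). Since Lrrc15, the collagen genes, Dcn, Ptprc and Rgs5 chose the cells, their values are given below as a description.

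Lrrc15 encodes a leucine-rich repeat membrane protein that is found on activated fibroblasts of tumours. Fibroblasts that respond to transforming growth factor beta (TGF-beta) are known to deposit and crosslink collagen and to build contractile actin filaments, whereas inflammatory fibroblasts secrete chemokines and cytokines. Dpt, Pi16 and Cd34 are commonly used to mark fibroblasts of resting connective tissue.

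The tumours were grown from 4T1, a mouse mammary carcinoma line, in the right flanks of female BALB/c mice aged 6 to 8 weeks. The sample records give 2 PBS samples, 1 TIOs+NIR3 sample and 1 sample whose title and protocol name different injections, which was left unassigned. PBS mice received phosphate-buffered saline into a vein on day 7, and TIOs+NIR3 stands for TIOs given in the same way, which are frozen macrophages that carry light-converting particles, a photosensitiser and RSL3, an inhibitor of the lipid peroxide reductase GPX4. In each group, PBS included, 980 nm light at 1.0 W/cm2 was applied for 5 min a day on the 3 days from day 8 to day 10, and tumours were collected on day 13. How many mice lie behind a sample was not stated.

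The barcodes carried 4 suffixes, called libraries 1 to 4 here. No source used here says which sample a library holds, so PBS and TIOs+NIR3 were not compared, and each library is a sample of unknown treatment. Cells of a library are not replicates, so no test was made, and the intervals given cover counting error only. Pairs of libraries shared 11 to 23 barcodes, and no barcode of a member was shared.

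The members numbered 97 of 7847 kept cells in library 1, 422 of 8614 in library 2, 92 of 6783 in library 3 and 83 of 8889 in library 4. These were 1.24%, 4.90%, 1.36% and 0.934% of the kept cells, and most members were thus from library 2. The sample records describe a sort for CD45+ cells, which should leave out fibroblasts and tumour cells. The content of the matrix goes against this, since 2045 kept cells met the fibroblast limits without a Ptprc UMI and 3325 of the 7847 kept cells of library 1 held Epcam and keratin UMIs. How cells of each library were enriched is thus unclear, and the shares of kept cells cannot be read as shares of the tumour. Their median depths were 16822, 27931, 32404.5 and 44494 UMIs per cell, and their summed depths were 1782461, 12351464, 3084699 and 3458728 UMIs. Library 1 was the shallowest, both per cell and in sum, and library 2 had the most UMIs behind each value.

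Among all fibroblasts that met the same limits with or without Lrrc15, numbering 116, 1053, 472 and 404 cells, the Lrrc15-positive share was 83.6% in library 1 (75.6 to 89.8%). It was 40.1% in library 2 (37.1 to 43.1%), 19.5% in library 3 (16.01 to 23.4%) and 20.5% in library 4 (16.7 to 24.8%). After each cell was thinned to 3000 UMIs before the limits were applied, the shares were 64.5%, 18.5%, 3.67% and 3.67%. Library 1 stood highest, library 2 next and libraries 3 and 4 lowest in both forms, and the intervals of libraries 3 and 4 overlapped. Library 1 was highest although its cells were the shallowest. Thinning also made it easier for a cell to hold no Ptprc UMI.

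**Figure D1:**
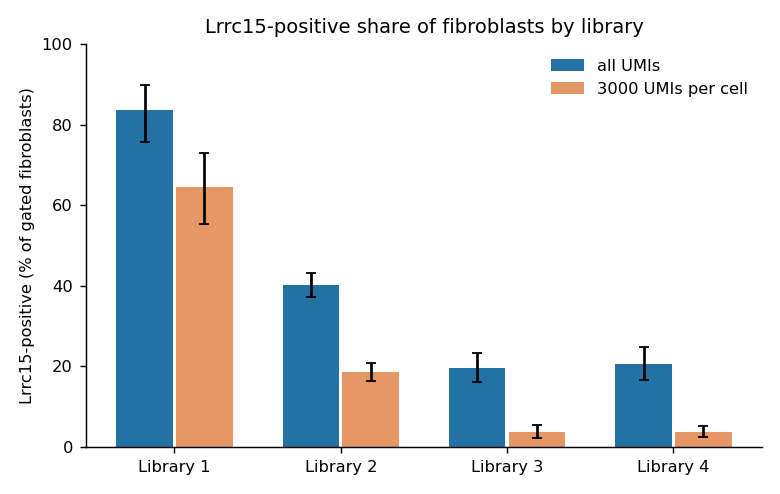
Share of gated fibroblasts with at least 1 Lrrc15 UMI (y axis, percent) in each library (x axis), with all UMIs and after thinning each cell to 3000 UMIs, as bars from 0 with exact 95% binomial intervals. Library 1 is highest at 83.6% and 64.5%, and libraries 3 and 4 are lowest.

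Lrrc15 UMIs were also counted in cells that should lack it, which gave a background, and its source was not tested. Of cells with Epcam and keratin UMIs, 2.83% held a Lrrc15 UMI in library 1 at a median of 18290 UMIs, and 4.35% in library 2 at a median of 34050.5 UMIs. Of macrophage-type cells with C1qa and Ptprc UMIs, 3.25%, 6.84%, 1.16% and 2.49% did, at medians of 13032, 7609, 7184 and 10503 UMIs. Of S100a8 and Csf3r cells, a neutrophil pattern, 1.20%, 3.70%, 1.14% and 1.85% did, at medians of 1994.5, 1963, 2143 and 1951 UMIs. The fibroblast share lay above each of these in each library. At 3000 UMIs in cells deep enough, 67.6%, 18.5%, 3.52% and 3.35% of gated fibroblasts held a Lrrc15 UMI, beside 1.40%, 2.23%, 0% and 0.344% of C1qa and Ptprc cells and 0%, 5.85%, 0.683% and 0.891% of S100a8 and Csf3r cells. The margin was smallest in libraries 3 and 4 as a difference in percentage points.

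Within the members Lrrc15 was unevenly counted. In library 1 only 12 of 97 members held a single Lrrc15 UMI and 70 held 4 or more, with a highest count of 47 in a cell. In library 2, 140 of 422 held 1 UMI and 175 held 4 or more. In libraries 3 and 4, 44 of 92 and 43 of 83 held 1 UMI, and 20 and 19 held 4 or more. The summed level of Lrrc15 was 583, 177, 78.8 and 61.3 counts per 1000000 UMIs (CPM) in libraries 1 to 4, highest in library 1. Over all libraries 239 members, 34.4%, rested on 1 Lrrc15 UMI, and 1351 fibroblasts met each other limit with none. Members held 3678 of the 6247 Lrrc15 UMIs in kept cells (58.9%). Lrrc15 lies at chr16:30269302-30283256 on the minus strand (GRCm38).

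The other limits had fewer cells near them. Of the members, 63 held 1 to 1.5% collagen UMIs and 4 held 1 Dcn UMI, while 59 cells with 0.5 to 1% collagen and 8 with no Dcn UMI met the rest. A further 189 cells were left out for 1 Ptprc UMI, 101 for 2 or more, and 5 for 3 or more Rgs5 UMIs, and 70 members held 1 or 2 Rgs5 UMIs.

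The name was checked against fibroblast markers that the limits did not use. Pdgfra, the platelet-derived growth factor receptor of fibroblasts, was counted in 76.3%, 95.02%, 97.8% and 98.8% of members in libraries 1 to 4. Thy1 was counted in 94.8%, 93.8%, 95.7% and 92.8%, and the proteoglycan Lum in 89.7%, 91.0%, 94.6% and 92.8%. Fap, a surface protease of activated fibroblasts, was counted in 41.2%, 70.1%, 70.7% and 74.7% of members, but its level was lower than in Dpt-positive fibroblasts without Lrrc15 (-1.01, -0.71 and -0.57, log2 ratios in libraries 2 to 4, defined below). These markers were present in each library, with Pdgfra and Fap in fewer cells of library 1. Inhba, which encodes the activin A subunit and was named as a marker of these cells, was counted in 83.5%, 58.3%, 66.3% and 37.3% of members at 1233, 308, 274 and 33.5 CPM, so library 4 held little of it.

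UMIs of other cell types were also present. All 12 genes of a tumour and epithelial list were counted in members of library 1, with a summed level of 1247 CPM and Krt18 highest at 330.4 CPM, while the sums were 387, 92.4 and 79.2 CPM in libraries 2 to 4, where 11, 4 and 6 of the 12 were counted and Lcn2 was highest. Krt18 was at 3498 CPM in Epcam and keratin cells of library 1, at 1466 CPM in C1qa and Ptprc cells there, and at 0 UMIs in members of library 3. A leucocyte list summed to 576, 1111, 856 and 1006 CPM, with 14 of its 15 genes counted in each library and Ptprc at 0 by the rule, and was led by Lyz2 in libraries 1 and 4 and by Cd3e in libraries 2 and 3. Endothelial genes summed to 25.8, 42.8, 28.9 and 22.6 CPM, with 8 to 10 of 10 counted. Pericyte and smooth muscle genes summed to 297, 578, 658 and 497 CPM with 9 or 10 of 10 counted, of which Ndufa4l2 alone gave 196, 523, 607 and 479 CPM. Adipocyte genes summed to 139, 677, 1044 and 682 CPM with Lpl highest and 4 to 6 of 8 counted. Schwann and nerve genes summed to at most 20.2 CPM and skeletal muscle genes to at most 7.93 CPM in a library. Their part in the results below was not tested.

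Members were next set beside the 1186 fibroblasts that met the same limits with no Lrrc15 UMI and at least 1 UMI of Dpt. Library 1 held only 11 of these, under the minimum of 30 cells set for a library, so ratios are given inside libraries 2, 3 and 4 with 551, 340 and 284 such cells, at median depths of 18099, 24677.5 and 30757.5 UMIs. The members of each library were deeper. Dpt itself was counted in 571 of the 694 members (82.3%), and in 46.4%, 86.0%, 89.1% and 97.6% of those in libraries 1 to 4, so the groups differ by Lrrc15 more than by Dpt. Levels are CPM of the summed UMIs, and ratios are log2 of (CPM + 10) over (CPM + 10).

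By a size rule of 2-fold in each of the 3 libraries, 0 of 6090 genes were higher in members (0%) and 3 were lower (0.0493%). Without library 4, 1 was higher and 30 were lower. At 1.5-fold, a limit added after seeing the data, 9 were higher (0.148%) and 36 lower (0.591%). The median ratio over all 6090 genes was -0.03, -0.01 and 0.02 in libraries 2 to 4, and 17.9% of genes lay above 0 and 21.9% below 0 in all 3.

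Cthrc1, which encodes a secreted protein of collagen-producing cells (chr15:39076932-39087121, plus strand), led the genes that were higher in members. Its level was 589, 416 and 294 CPM in members of libraries 2 to 4 and 302, 183 and 129.8 CPM in the Dpt-positive cells, log2 ratios of 0.94, 1.14 and 1.12. In library 1 members it was 526 CPM. The ratio was similar in all 3 libraries. At 3000 UMIs per cell it was counted in 69.8%, 62.0% and 48.8% of members and in 42.6%, 29.1% and 32.4% of Dpt-positive cells. The exact intervals did not overlap in libraries 2 and 3, and in library 4 the lower bound of members, 37.6%, lay just under the upper bound of the Dpt-positive cells, 38.2%.

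Ordered by the smallest of the 3 ratios, the matrix genes Ltbp2, Col12a1 and Lox ranked 3, 10 and 13 among the genes that were higher in members, all under 2-fold in at least 1 library. Ltbp2, a matrix protein related to the latent TGF-beta binding proteins, was at 179.6, 67.8 and 90.8 CPM in members and 49.98, 36.7 and 39.1 CPM in Dpt-positive cells (1.66, 0.74 and 1.04). The fibril-associated collagen Col12a1 was at 559, 249 and 178 CPM against 252, 164 and 110.3 CPM (1.12, 0.58 and 0.64). Lox, a collagen-crosslinking oxidase, was at 1620.0, 1674 and 1242 CPM against 1137, 1094 and 785 CPM (0.51, 0.61 and 0.66). Of 15 tested genes of collagen processing and crosslinking, 7 lay above 0 in all 3 libraries and 1, Pcolce, below, beside 17.9% and 21.9% of all tested genes. These 7 were Lox, Loxl2, the lysyl hydroxylase Plod2, the prolyl hydroxylase subunits P4ha1, P4ha2 and P4ha3, and the collagen chaperone Serpinh1. None of the 15 passed 1.5-fold in all 3 libraries, and their medians were 0.33, 0.26 and 0.07.

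The genes ranked 2 and 4 to 9 were on none of the matrix lists. Crabp1, a retinoic acid binding protein, was at 152, 254 and 223 CPM against 24.6, 123 and 132 CPM (2.23, 0.99 and 0.72). Serpinb2, an inhibitor of plasminogen activators, was at 714, 357 and 308 CPM against 309, 179 and 177 CPM (1.18, 0.96 and 0.77). Il1rl1, the receptor of IL-33, was at 220.0, 528 and 109 CPM against 138, 271 and 62.7 CPM (0.64, 0.93 and 0.72). These genes lay above the Dpt-positive cells in each of the 3 libraries, and Crabp1 most in library 2. The adhesion molecule Ncam1 (0.72, 0.66 and 0.66), the convertase Pcsk5 (1.07, 0.78 and 0.61), Tmeff1 (1.18, 0.66 and 0.73) and Crip1 (0.75, 0.60 and 0.64) complete the 9 genes past 1.5-fold. Genes under 2-fold are outside the size rule, and those on no fixed list were named after their values were seen.

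The 3 genes that were lower by 2-fold in each library were Apod, Aldh1a2 and Entpd2. With a pseudocount of 50 CPM none of them passed in each library. Apod, a secreted lipocalin (chr16:31296192-31314808, minus strand), was at 204, 92.7 and 36.1 CPM in members and 718, 726 and 97.5 CPM in Dpt-positive cells (-1.77, -2.84 and -1.22). Aldh1a2, an enzyme of retinoic acid synthesis, was at 24.5, 46.0 and 37.6 CPM against 132, 131 and 92.9 CPM (-2.04, -1.34 and -1.11). Entpd2, which hydrolyses extracellular nucleotides, was at 36.2, 25.3 and 12.7 CPM against 115, 86.1 and 38.4 CPM (-1.44, -1.45 and -1.09). Members lay below the Dpt-positive cells of their own library for each gene, and Apod differed least in library 4. At 3000 UMIs per cell Apod was counted in 28.1%, 20.7% and 12.2% of members and 58.3%, 42.6% and 17.4% of Dpt-positive cells, and in library 4 the intervals overlapped.

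Inflammatory genes were lower in members more often than higher, though not in sum in library 2. Of 21 tested genes of the inflammatory list, 12 lay below 0 in all 3 libraries and none above, beside 21.9% and 17.9% of all tested genes. The list summed to 26892, 17982 and 7095 CPM in members of libraries 2 to 4 and 23408, 20555 and 13775 CPM in Dpt-positive cells. Of its genes 4 were past 1.5-fold lower, beside 0.591% of all tested genes. The chemokine Cxcl14 was at 1006, 1511 and 508 CPM in members and 2515, 3232 and 1009 CPM in Dpt-positive cells (-1.31, -1.09 and -0.98). The complement gene C3 was at 1116, 402 and 229.6 CPM against 2179, 867 and 716 CPM (-0.96, -1.09 and -1.60). Cxcl9 (-1.56, -0.89 and -0.74) and Cxcl10 (-0.86, -1.20 and -0.60), chemokines induced by interferon, were the other two. Saa3, an acute-phase gene, changed sign (1.32, 0.95 and -2.31). The medians of the list were -0.16, -0.21 and -0.68, so the list lay lowest in library 4.

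In all 3 libraries 17.9% of all tested genes lay above 0 and 21.9% below, shares that stand beside each count in this paragraph. Past 1.5-fold, 0.148% were higher and 0.591% lower. Of 15 tested genes of the resting list, 7 lay below 0 in all 3 libraries and none above. Cxcl14, which is on this list too, the actin-severing protein Gsn (-1.63, -1.64 and -0.61) and Clec3b (-0.86, -0.72 and -1.06) were past 1.5-fold lower. Only the comparison cells had to hold Dpt, itself a resting marker, which can favour lower resting genes in members. The resting counts are thus a description, and the part of this limit was not tested. Of 15 tested collagen chains, 4 lay above 0 in all 3 libraries, namely Col5a1, Col5a2, Col5a3 and Col12a1, and 5 below. The basement membrane chains Col4a1 (-1.27, -0.92 and -0.97) and Col4a2 (-1.25, -0.86 and -0.91) were past 1.5-fold lower. Of 22 tested matricellular genes, 10 lay above and 6 below, with Cthrc1 past 1.5-fold higher and Eln, which encodes elastin, past 1.5-fold lower (-0.85, -1.07 and -0.67). Glycolysis and hypoxia genes lay above in 8 of 12 and below in 2, beside 17.9% and 21.9% of all tested genes. Contractile genes lay above in 8 of 11 and below in 2, the myosin kinase Mylk (-0.97, -0.83 and -1.29) and the intermediate filament Des (-1.09, -0.54 and -1.32), and none was past 1.5-fold higher in all 3.

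Of the TGF-beta pathway, 5 ligands and activin subunits were tested and Inhba alone lay above 0 in all 3 libraries (1.34, 0.61 and 0.18). Tgfb1 was at 58.0, 45.4 and 32.7 CPM in members and 40.4, 44.6 and 33.0 CPM in Dpt-positive cells, so libraries 3 and 4 hardly differed. Of 8 tested receptors 3 lay below 0 in all 3 libraries, Tgfbr1, Tgfbr3 and Eng, and none above, beside 21.9% and 17.9% of all tested genes. Of the TGF-beta responsive genes reported here, Ltbp2, Lox, Pmepa1, Tgfbi and Cdkn1a lay above 0 in all 3 libraries, Skil, Tgif1 and Junb lay below, and Ccn2 and Smad7 did not lie on 1 side. Pmepa1, an inhibitor within the pathway, was at 754, 511 and 476 CPM against 462, 422 and 247 CPM (0.70, 0.27 and 0.92).

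**Figure D2:**
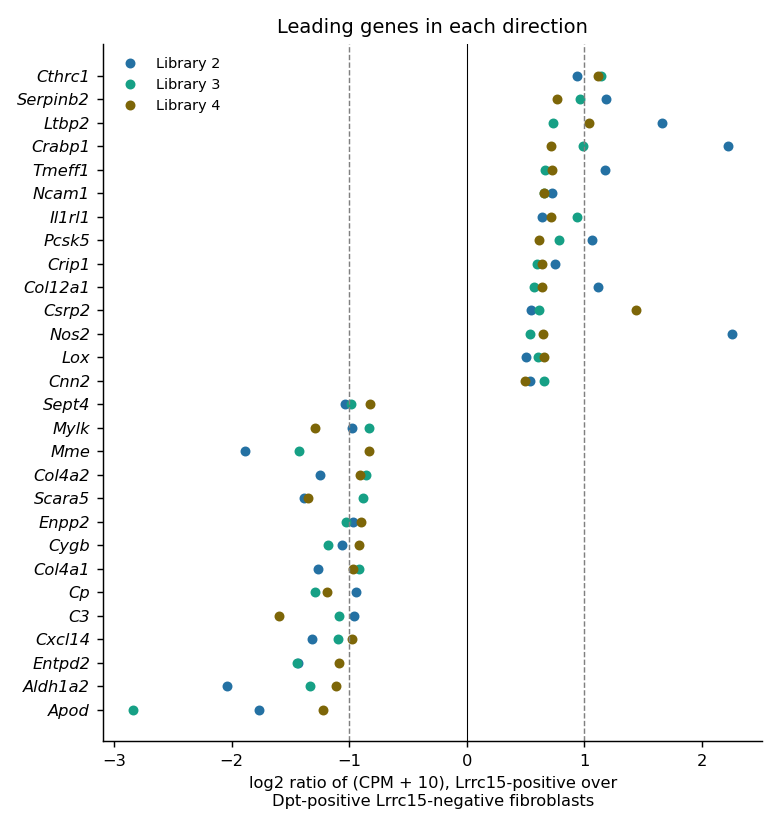
Log2 ratio of (CPM + 10) in Lrrc15-positive over Dpt-positive Lrrc15-negative fibroblasts (x axis) for the 14 leading genes in each direction (y axis), with 1 point for each of libraries 2, 3 and 4 and dashed lines at a 2-fold ratio. Apod, Aldh1a2 and Entpd2 lie beyond -1 in all 3 libraries, and no gene lies beyond 1 in all 3.

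A smaller group of 165 fibroblasts held neither Lrrc15 nor Dpt UMIs, with 80, 40 and 37 cells in libraries 2 to 4 at median depths of only 3563, 6004 and 9886 UMIs. Of 6245 tested genes 9 were higher in members by 2-fold in each library (0.144%) and 3 lower (0.048%). Postn, a matricellular protein of activated fibroblasts, was at 1191, 705 and 563 CPM in members and 342, 245 and 99.7 CPM in these cells (1.77, 1.49 and 2.39). Ccn5 was at 159, 105 and 184 CPM against 45.9, 14.1 and 26.3 CPM (1.59, 2.25 and 2.42). Both were higher in members of all 3 libraries. The others were Csrp2, H19, P4ha3, Lrrc17, Arsi, Hpgd and Sfrp4. The stress-response gene Nupr1 was lower, at 278, 192 and 193 CPM against 790.1, 501 and 720.1 CPM (-1.47, -1.34 and -1.85), with Sema3a and Esm1. Of 14 tested cell cycle genes 13 lay above 0 in all 3 libraries, among them the proliferation marker Mki67 (0.58, 1.19 and 1.33). Of 13 tested glycolysis and hypoxia genes 10 lay below and none above, with medians of -0.34, -0.34 and -0.84, the opposite direction to the comparison with Dpt-positive cells. Of all 6245 genes, 16.2% lay above 0 and 15.5% below in all 3. These cells were the shallowest of the 3 groups, and the part of depth in these ratios was not tested. Leaving out a library raised the counts to at most 36 higher and 31 lower, both without library 2.

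Members of library 2, the most numerous, were then grouped by their Lrrc15 UMIs, in classes added after seeing the data. The 140 cells with 1 UMI, 107 with 2 or 3 and 175 with 4 or more had median depths of 23957, 27661 and 29101 UMIs, so the classes also rose in depth. Ltbp2 was at 69.1, 114 and 293 CPM in these classes, Col12a1 at 336, 375 and 816 CPM, and Tnc, a matricellular glycoprotein, at 1029, 1278 and 2155 CPM. Cthrc1 was at 431, 585 and 701 CPM, Postn at 989.9, 1048 and 1411 CPM, and Acta2, smooth muscle actin, at 158, 209 and 405 CPM. These levels were highest in the cells with the most Lrrc15. Inhba was lowest in the middle class, at 227, 152 and 452 CPM.

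Other genes ran the opposite way. Cxcl14 was at 1854, 1095 and 364 CPM with 1, with 2 or 3, and with 4 or more Lrrc15 UMIs, and Apod at 312, 255 and 99.3 CPM. Gsn was at 843, 661 and 438 CPM and Aldh1a2 at 56.6, 17.1 and 6.20 CPM. Entpd2 was at 50.6, 51.0 and 17.9 CPM and Dpt at 411, 409.7 and 257 CPM, so that the highest class alone differed for these genes. Cxcl14, Apod, Gsn and Aldh1a2 were at 2515, 718, 1939.7 and 132 CPM in the Dpt-positive cells of library 2, from which the cells with 4 or more Lrrc15 UMIs were farthest. Saa3 was highest with the most Lrrc15, at 7371, 12094 and 13057 CPM.

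**Figure D3:**
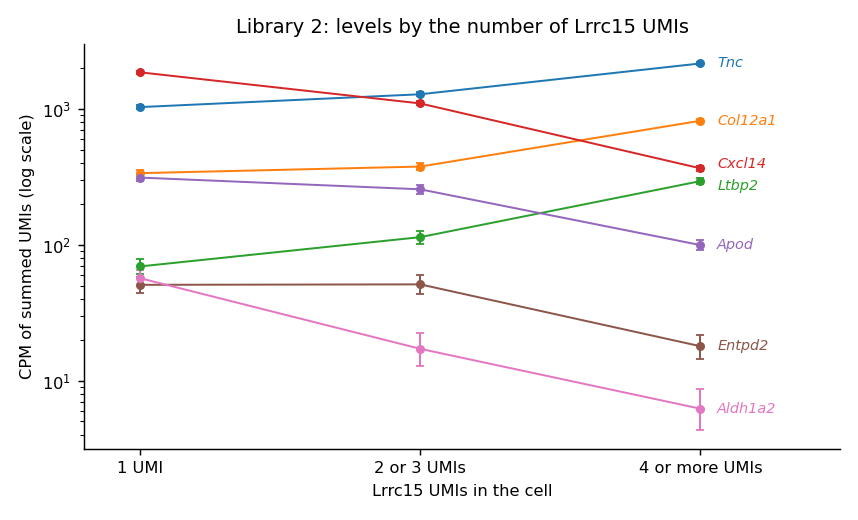
CPM of summed UMIs (y axis, log scale) of 7 genes in Lrrc15-positive fibroblasts of library 2 grouped by the Lrrc15 UMIs in the cell (x axis), as points with exact 95% Poisson intervals for counting error. Tnc, Col12a1 and Ltbp2 are highest with 4 or more UMIs, and Cxcl14, Apod, Entpd2 and Aldh1a2 are lowest there.

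Members of each library were also set beside members of each other library, a comparison added after seeing the data. By the 2-fold rule against all 3 others, library 1 had 198 of 6844 tested genes higher (2.89%) and 120 lower (1.75%). Library 2 had 21 higher (0.307%) and 2 lower (0.0292%), library 3 had 5 higher (0.0731%) and 3 lower (0.0438%), and library 4 had 31 higher (0.453%) and 60 lower (0.877%). Library 1 stood apart most and library 3 least. Library 1 also held 3325 Epcam and keratin cells, against 230, 0 and 1 in the others. The mouse, the treatment and the preparation of a library cannot be told apart here.

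In library 1 contractile genes were high. Acta2 (chr19:34241090-34255590, minus strand) was at 2145 CPM in members of library 1 and 280.2, 156 and 183 CPM in those of libraries 2 to 4. Tagln, an actin-binding protein of smooth muscle, was at 2074 CPM against 168, 41.8 and 37.6 CPM, and Myl9, a myosin light chain, at 282 CPM against 37.5, 37.0 and 43.9 CPM. In these genes library 1 lay above every other library. Of 11 tested contractile genes 8 were past 2-fold above all other libraries, also Tpm1, Tpm2, Cnn1, Cnn2 and Actg2, as were 2.89% of all tested genes. All 11 were past 1.5-fold, as were 5.63% of all tested genes. Cnn1 (41.5 against 1.46, 1.62 and 0.867 CPM) and Actg2 (107 against 2.02, 0 and 2.60 CPM) reached the limit of 20 CPM only through library 1. Their calls thus followed from being tested. In C1qa and Ptprc cells of library 1 Acta2 was at 67.2 CPM and in Epcam and keratin cells at 21.7 CPM, and in the 11 Dpt-positive cells of library 1 Acta2 was at 205 CPM. The 8 fibroblasts of library 1 with neither Lrrc15 nor Dpt held Acta2 at 1502 CPM, against 247, 141 and 33.8 CPM in such cells of libraries 2 to 4. The contractile list summed to 6007 CPM in these 8 cells and 8788 CPM in members of library 1. In the 11 Dpt-positive cells of library 1 it summed to 2167 CPM, against 1987, 1889 and 1598 CPM in those of libraries 2 to 4. Both groups are under the minimum of 30 cells, so they do not settle whether the high level was particular to members. Markers of other cells moved with these genes. Of 8 tested genes of the tumour and epithelial list 7 were past 2-fold higher in library 1 members, with median log2 ratios of 2.48, 2.80 and 2.77 to libraries 2 to 4. Krt18, Krt8 and Wfdc2 ranked 4, 5 and 13 among the higher genes. Lcn2 gave 320 of 387, 80.4 of 92.4 and 60.1 of 79.2 CPM of this list in libraries 2 to 4. The other genes thus reached the limit of 20 CPM mainly through library 1, which favours such calls, so the count is a description. Of 5 tested genes of the antigen-presenting list 4 were past 2-fold higher, namely Cd74, H2-Aa, H2-Ab1 and H2-Eb1, with medians from 2.17 to 2.67. Their part in the contractile difference was not tested beyond the level of Acta2 in other cells.

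The contractile difference did not lie in all cells of library 1 alike. The contractile list took a median of 0.518% of a member's UMIs in library 1, with 5th and 95th percentiles of 0.0863% and 2.46%. The medians were 0.141%, 0.181% and 0.176% in libraries 2 to 4, and 0.190%, 0.110%, 0.138% and 0.131% in Dpt-positive cells of libraries 1 to 4. A level of 0.569%, the 95th percentile of members in libraries 2 to 4, was exceeded by 45 of 97 members in library 1 (46.4%, 36.2 to 56.8%), 27 of 422 in library 2, 2 of 92 in library 3 and 1 of 83 in library 4. After thinning to 3000 UMIs Acta2 was counted in 64.2% of members of library 1 and 25.2%, 20.7% and 18.3% in the others, where it was counted in 15.7%, 18.3% and 12.1% of Dpt-positive cells.

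**Figure D4:**
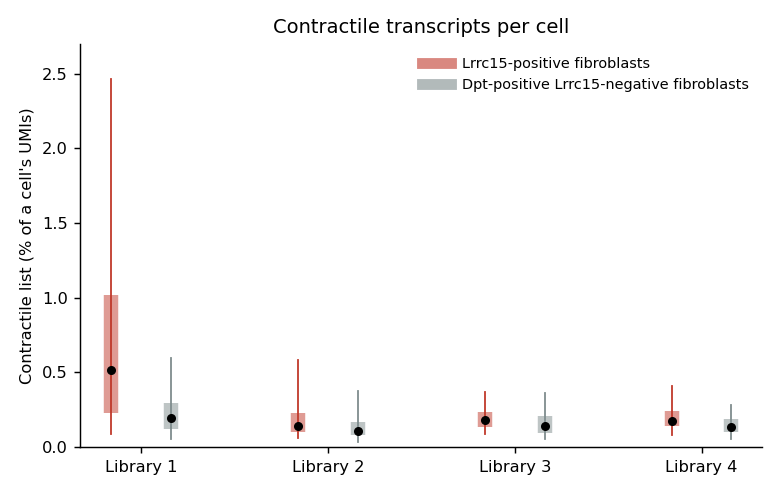
Share of a cell's UMIs from the contractile list (y axis, percent) in Lrrc15-positive and in Dpt-positive Lrrc15-negative fibroblasts of each library (x axis), with dots at medians, thick bars between the quartiles and thin lines from the 5th to the 95th percentile. Members of library 1 have a median of 0.518% and the widest range, up to 2.46%.

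Contractile genes are classic targets of serum response factor, which binds the CArG box, so promoters of the contractile list were searched for this motif on both strands. RefSeq (GRCm38.p6) promoters were found for 12 of the 15 list genes, and Actg2, Myh11 and Tagln are named only. An exact match, CC then only A or T letters then GG, lay in 2 of the 12 (16.7%), Myl9 and Cnn2. It lay in 535 of 32851 promoters of the same length (1.63%). That share counts promoters, whereas a list gene was counted if any of its promoters matched. The shares are thus in unlike units, which can favour the list. Myl9 and Cnn2 were past 2-fold higher in library 1. So were Acta2, Tpm1, Tpm2 and Cnn1, which had no exact match. The Acta2 promoter held ccctatatgg and ccttgtttgg, which have a C or G among the A and T letters. Such near matches were not counted. The 250 bases before each start are given 5′ to 3′ in the direction of transcription with the match in capitals, which begins 161 bases before the start of Myl9 (chr2:156775214-156775463, plus strand) and 56 before that of Cnn2 (chr10:79988350-79988599, plus strand). A match is a description of the letters and says nothing of binding.
Myl9: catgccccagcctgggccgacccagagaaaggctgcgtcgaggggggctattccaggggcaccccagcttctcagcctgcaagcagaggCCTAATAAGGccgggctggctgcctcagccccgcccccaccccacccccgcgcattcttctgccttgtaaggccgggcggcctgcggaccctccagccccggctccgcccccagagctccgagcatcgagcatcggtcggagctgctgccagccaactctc
Cnn2: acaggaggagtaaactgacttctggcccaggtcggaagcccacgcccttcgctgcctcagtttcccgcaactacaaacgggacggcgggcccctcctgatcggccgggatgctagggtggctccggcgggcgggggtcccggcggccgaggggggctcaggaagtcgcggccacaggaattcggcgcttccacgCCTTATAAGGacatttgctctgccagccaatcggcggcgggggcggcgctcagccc

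Some signalling and matrix genes were high in library 1 as well, though most genes of the matrix lists were not. Past 2-fold in library 1 were 3 of 16 tested collagen chains higher and none lower, 3 of 22 matricellular genes higher and 2 lower, 3 of 19 proteases and inhibitors higher and 2 lower, and of 15 collagen processing genes none higher and 1 lower. Of all tested genes 2.89% were higher there and 1.75% lower. Among the higher genes, the proteases Mmp13 and Mmp10 and the collagen chain Col7a1 were at 385, 122 and 336 CPM in library 1. They reached the limit of 20 CPM only there, which favours such calls, so the protease and collagen counts are a description of library 1. Inhba was at 1233 CPM there against 308, 274 and 33.5 CPM, Tgfb1 at 235 CPM against 58.0, 45.4 and 32.7 CPM, and Wnt5a, a secreted Wnt ligand, at 220.5 CPM against 36.8, 53.2 and 15.3 CPM. Beside the higher tumour and epithelial and antigen-presenting counts in these members, Epcam and keratin cells of library 1 held Inhba at 79.1, Tgfb1 at 65.1 and Wnt5a at 1.84 CPM, and C1qa and Ptprc cells held them at 61.5, 146 and 3.67 CPM. Of 6 tested TGF-beta and activin ligands 3 were past 2-fold higher in library 1, Inhba, Tgfb1 and Tgfb3, against 2.89% of all tested genes. Tgfb3, at 66.8 CPM against 12.5, 11.7 and 5.78 CPM, reached the limit of 20 CPM only through library 1. Crabp1 was at 1709 CPM against 152, 254 and 223 CPM, and it was at 1668 CPM in the 11 Dpt-positive cells of library 1. Col12a1 was at 1559 CPM against 559, 249 and 178 CPM, and Col7a1, the anchoring fibril collagen, at 336 CPM against 7.45, 3.89 and 1.16 CPM. Each was highest in library 1. Spp1, osteopontin, was at 9105 CPM against 966, 1123 and 837 CPM, and at 4642 CPM in Epcam and keratin cells and 2567 CPM in C1qa and Ptprc cells of library 1.

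Grem1 and Mmp13 were scarce outside library 1. Grem1, a secreted inhibitor of bone morphogenetic proteins, was at 410.1 CPM in library 1 and 6.64 and 5.84 CPM in libraries 2 and 3. It had 0 UMIs in library 4, which allows up to 0.867 CPM (3 counts). It was counted in 50.5% of members of library 1, 4.27% in library 2 and 6.52% in library 3. Mmp13, a collagenase, was at 385 CPM in library 1 against 1.94 CPM in library 2 and 0.867 CPM in library 4, with 0 UMIs in library 3, which allows up to 0.973 CPM. It was counted in 17 of 97 members of library 1, so its level came from a minority of cells. C1qa and Ptprc cells of library 1 held Mmp13 at 113 CPM and Grem1 at 3.51 CPM.

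Among genes that were low in library 1 were several of the inflammatory and resting lists. Cxcl12, a chemokine of stromal cells, was at 108 CPM against 976, 1026 and 754 CPM, and Cxcl5, a neutrophil chemokine, at 126 CPM against 1385, 1361 and 1142 CPM. Cd34 was at 32.0 CPM against 237, 130.3 and 146 CPM and Lpl, lipoprotein lipase, at 53.9 CPM against 554, 711 and 509.7 CPM. Libraries 2 to 4 all lay above library 1 in these genes. Cxcl12, Cxcl5, Cd34 and Lpl were also past 2-fold lower in C1qa and Ptprc cells of library 1. Car4, a carbonic anhydrase, had 0 UMIs in library 1, which allows up to 1.68 CPM, against 183, 107 and 114 CPM. Of 15 tested resting genes 7 were past 2-fold lower, Cd34, Ly6a, Ly6c1, Ackr3, Pcolce2, Efemp1 and Sema3c, while Cxcl14, at 2796, 1006, 1511 and 508 CPM in libraries 1 to 4, and Mfap4 were past 1.5-fold higher. At 1.5-fold 8 of the 15 were lower, against 4.81% of all tested genes. The summed level of the resting list was 5563, 7906, 6065 and 5357 CPM, so library 1 was not the lowest in sum. Of 22 tested inflammatory genes 3 were past 2-fold lower, Cxcl5, Cxcl12 and Il33, and 1 higher, Cxcl9. Of all tested genes 1.75% were past 2-fold lower in library 1 and 2.89% higher.

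Other cells of library 1 also differed from those of the other libraries. Of the 198 genes that were higher in library 1 members, 61 (30.8%) were also past 2-fold higher in C1qa and Ptprc cells of library 1, against 1.87% of the tested genes, and of the 120 lower genes 47 (39.2%) were also lower there, against 4.11%. Of the 198, 89 were at least 2-fold above both the C1qa and Ptprc cells and the Epcam and keratin cells of library 1, and 86 were below one of them. The antigen presentation gene Cd74 was at 524 CPM against 47.6, 38.3 and 65.1 CPM in members and at 12660.4 CPM in C1qa and Ptprc cells of library 1. The part of RNA from other cells in these differences was not tested.

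**Figure D5:**
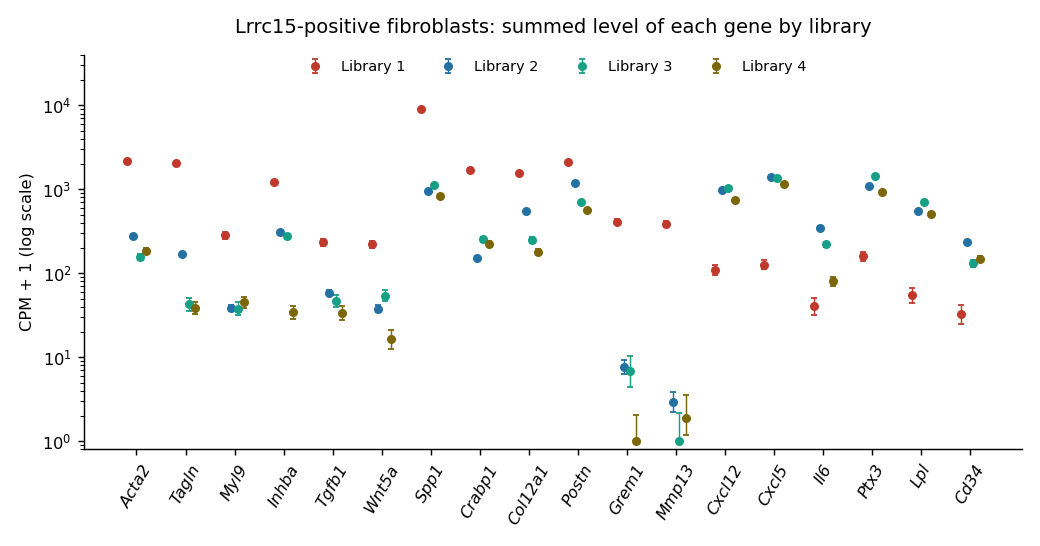
CPM + 1 (y axis, log scale) of 18 genes (x axis) summed over the Lrrc15-positive fibroblasts of each library, with exact 95% Poisson intervals for counting error. Library 1 is highest for the genes from Acta2 to Mmp13 and lowest for those from Cxcl12 to Cd34.

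Several acute-phase genes, chosen after their values were seen, were highest in members of library 2. Saa3 was at 784, 11056, 2667 and 575 CPM in libraries 1 to 4, and was counted in 422 of the 422 members of library 2. Hp, haptoglobin, was at 19.1, 929, 321 and 125 CPM, C3 at 278, 1116, 402 and 229.6 CPM, and Lbp, which binds bacterial lipopolysaccharide, at 263, 924, 341 and 130.4 CPM. Library 2 was the highest for each of these genes. Nos2, the inducible nitric oxide synthase, was at 6.17, 136, 21.4 and 27.2 CPM. It was at 20.4 CPM in the Dpt-positive cells of library 2, and at 195 CPM in the members with 4 or more Lrrc15 UMIs. The resting marker Pi16 was highest in library 2 too, at 398, 1130.5, 466 and 241 CPM. The 2 genes that were lower in library 2 were Capg, an actin-capping protein, at 406, 101, 219 and 242 CPM, and Fdps, an enzyme of sterol synthesis, at 173, 36.8, 84.0 and 107 CPM.

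In library 3 the IL-33 receptor Il1rl1 was highest, at 69.6, 220.0, 528 and 109 CPM in libraries 1 to 4. It was highest in library 3 among Dpt-positive cells also, at 80.3, 138, 271 and 62.7 CPM. The interferon-induced genes Isg15 (338, 203, 74.6 and 212 CPM) and Bst2 (345, 382, 93.7 and 219 CPM) were lowest in library 3. Sfrp4, a secreted Wnt inhibitor, was lowest there too, at 88.1, 98.8, 19.5 and 70.0 CPM. Fabp4, a fatty acid binding protein, was highest in library 3, at 36.5, 82.0, 292 and 134 CPM, and Il18r1, Ptpn22 and Ccl5 complete its 5 higher genes.

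In library 4 the lower genes included Nr4a1, an early-response receptor, which was at 66.8 CPM against 332, 358 and 371 CPM in libraries 1 to 3, and Ptgs2, the inducible cyclooxygenase, at 65.1 CPM against 252, 534 and 394 CPM. Il11, a cytokine of activated fibroblasts, was at 43.1 CPM against 250.2, 213 and 457 CPM. Each was below every other library. Dpt-positive cells of library 4 were low in Nr4a1 too, at 100.1 CPM against 428, 457 and 449 CPM. Of 22 tested inflammatory genes 4 were past 2-fold lower, against 0.877% of all tested genes. Of 14 tested cell cycle genes 13 lay above all other libraries, as did 40.7% of all tested genes, and the mitotic genes Cenpf and Ccnb1 by 2-fold. Cenpf was at 57.8, 37.4, 39.6 and 151 CPM in libraries 1 to 4.

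Of 12 tested genes of the leucocyte list 2, Lyz2 and Fcer1g, were past 2-fold higher in library 4, against 0.453% of all tested genes, and none was lower. The list lay above all other libraries in 7 of 12, beside the 40.7% of all tested genes, with median log2 ratios of 0.75, 0.76 and 0.92 to libraries 1 to 3. Lyz2, lysozyme, was at 111, 67.8, 30.5 and 303 CPM in members of libraries 1 to 4 and at 5608 CPM in C1qa and Ptprc cells of library 4. Fcgr1, an Fc receptor chosen after its values were seen, was at 2.81, 2.27, 5.51 and 42.5 CPM, and at 662 CPM in those cells. The haemoglobin gene Hbb-bs, chosen likewise, was at 2.24, 1.62, 4.86 and 817 CPM and was counted in 23 of 83 members of library 4. Their part in the other values of library 4 was not tested.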

How the data were processed

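Single-cell libraries of 4T1 tumour cells, described as sorted for CD45, were analysed from the 10x matrix of 33064 barcodes and 55450 genes, which holds 355765099 UMIs. Its values are raw UMI counts per gene and barcode, as deposited by the authors. The submitters' notes name the mouse build mm10 and Cell Ranger 2.1.1, the design text names 3.0.2 and the matrix header 6.1.2, so the version that made the file is uncertain. The study's methods state a minimum of 300 genes, a maximum of 15% mitochondrial transcripts and the removal of genes seen in few cells, and fewer cells were analysed there than pass here. The deposited matrix had not been held to the cell limits, since 32133 of its 33064 barcodes passed them.

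Cells were kept and gated by the limits given with the results. Libraries were the 4 barcode suffixes, at 69255999 to 108646352 UMIs, and were never used as replicates. UMIs were summed over the cells of a group in a library and given as CPM, and ratios used a pseudocount of 10 CPM. A gene was tested against the size rule when it reached 20 CPM in either group pooled. Between libraries it was tested when members of any single library reached 20 CPM. A library was used with 30 cells in both groups. The 8 genes of the gates were left out. The Dcn, Lrrc15, Rgs5 and collagen limits choose the cells and so set those genes' values. Shares have exact Clopper-Pearson intervals and levels exact Poisson intervals at 95%. Thinning drew 3000 UMIs per cell without replacement, and 12803 shallower cells were left out of it, 8 of them members. Doublets were kept, and leaving out the highest 5% of Scrublet scores (1561 cells, 20 members) was an alternative. Genes were named by a fixed rule, the 15 with the largest smallest ratio past the size rule in each direction and the genes of 28 fixed lists, and others are said to have been chosen after their values were seen. The leading genes of the comparisons between libraries and all Lrrc15 classes belong to those chosen later. The members and lists were chosen with earlier results of these data known. The full TGF-beta responsive list is not reported here. On simulated counts the size rule called 87 of 100 genes raised and 59 of 100 lowered by 1.5 on the log2 scale in the comparison with Dpt-positive cells, 99 and 87 at 2, none at 0.5 and no unchanged gene. Both groups were drawn as Poisson counts from the Dpt-positive profile of each library, without variation between cells. The simulation thus does not show how the rule behaves with such variation. Gene coordinates are from GENCODE on GRCm38, to which all 55450 identifiers matched. The tools were Python 3.11.15, numpy 2.4.6, scipy 1.17.1, pandas 2.3.3, scanpy 1.11.5 and matplotlib 3.10.9.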

Additional observations from a re-analysis of the deposited data

How the results depend on the processing

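Samples could not be paired across treatments, because no library could be tied to a sample or a replicate number. Members and other fibroblasts were compared inside each library. The share of kept cells (2.16%) was 2.34% with collagen of at least 0.5% and 1.74% with at least 2%, 1.42% with at least 2 Lrrc15 UMIs, 2.75% with up to 1 Ptprc UMI, 1.94% without any Rgs5 UMI and 1.81% after thinning, as looser or stricter limits change it by construction, and leaving out a library gave 1.16% (without library 2) to 2.63%. Against Dpt-positive cells, genes higher (0) and lower (3) were 1 and 15 with a pseudocount of 1 CPM, 0 and 0 with 50 CPM, 2 and 9 as a mean over cells, 1 and 26 with at least 2 Lrrc15 UMIs, 88 and 170 after thinning, when only 1 library kept enough cells, and 9 and 36 at 1.5-fold. Leaving out a library gave 0 to 1 higher and 3 to 30 lower. Against cells with neither gene, genes higher (9) and lower (3) were 20 and 10 with 1 CPM, 2 and 1 with 50 CPM, 5 and 1 with a floor of 100 CPM, and 35 and 74 after thinning with 1 library. They were 21 and 13 without the highest doublet scores, when 2 libraries kept enough cells, and leaving out a library gave 9 to 36 higher and 3 to 31 lower. Lower genes were 33 as a mean over cells and 5 with at least 2 Lrrc15 UMIs, and the cause was not tested.

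Between libraries, with pseudocounts of 1 and 50 CPM, library 1 had 257 and 78 genes higher and 233 and 40 lower, library 2 had 36 and 9 higher and 6 and 0 lower, library 3 had 7 and 1 higher and 15 and 1 lower, and library 4 had 64 and 7 higher and 124 and 20 lower. With at least 2 Lrrc15 UMIs 93 were lower in library 4. Leaving out another library, which leaves fewer ratios to pass, gave 213 to 272 higher and 154 to 180 lower in library 1, 27 to 78 and 4 to 5 in library 2, 8 to 49 and 6 to 28 in library 3, and 40 to 67 and 68 to 136 in library 4. Of 1154 values of 121 single genes under alternatives, 932 moved by less than their counting interval or spread and 218 by more, and 4 changed sign. These were Hpgd against cells with neither gene after thinning (-0.35), Sfrp4 in that comparison as a mean over cells (-0.043), and Hba-a2 in library 4 with at least 2 Lrrc15 UMIs (-0.066) and without the highest doublet scores (-0.0051), which had come from 2 of 83 members. Depth limits genes below 20 CPM in members of library 1, where 3 counts are 1.68 CPM.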

Other observations

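The lipid peroxidation defence list, which holds the target of RSL3, differed little between members and Dpt-positive cells. Of 8 tested genes 4 lay below 0 in all 3 libraries and none above, and none was past 1.5-fold, with medians of -0.11, -0.10 and -0.06. Of all tested genes 21.9% lay below 0 in all 3 libraries and 17.9% above. Gpx4, the phospholipid hydroperoxide reductase, was at 292, 279, 292 and 415 CPM in members of libraries 1 to 4 and 281, 288 and 394 CPM in Dpt-positive cells of libraries 2 to 4. Hmox1, haem oxygenase, was at 40.4, 149, 225 and 164 CPM in members, lowest in library 1, and 197, 347 and 230.3 CPM in Dpt-positive cells.

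Inflammatory genes took a median of 0.696%, 2.17%, 1.73% and 0.604% of a member's UMIs in libraries 1 to 4 and 1.22%, 2.057%, 1.86% and 1.22% in Dpt-positive cells. Resting genes took 0.300%, 0.720%, 0.566% and 0.425% in members and 0.818%, 1.24%, 0.832% and 0.813% in Dpt-positive cells, with Dpt left out of the sum, and were lower in members of libraries 2 to 4. The Dpt-positive cells of library 1 numbered only 11, under the limit of 30 cells, so its values are not compared here. Since only the comparison cells had to hold Dpt, a resting marker, that limit can favour lower resting genes in members. Its part was not tested. Cell cycle genes took 0.0886%, 0.0625%, 0.113% and 0.201% in members and 0.0834%, 0.0602%, 0.0958% and 0.110% in Dpt-positive cells, highest in members of library 4.

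Cd3e, a subunit of the T cell receptor complex, led the leucocyte list in libraries 2 and 3. It was at 7.85, 436, 336 and 20.2 CPM in members of libraries 1 to 4 and was counted in 5.15%, 65.6%, 71.7% and 22.9% of them, while Cd3d, its partner in T cells, was counted in 4.12%, 1.18%, 2.17% and 1.20%. In Dpt-positive cells Cd3e was at 35.7, 269, 166 and 37.1 CPM, and in cells with Cd3d and Trac UMIs at 486, 514, 502 and 494 CPM. Cd3d was at 0.405 and 0.648 CPM in members of libraries 2 and 3 and at 0.513 and 0.995 CPM in their Dpt-positive cells, so both groups held Cd3e with little Cd3d. Cd3e (chr9:44998740-45009627, minus strand, GRCm38) overlaps the antisense gene Gm48719 (chr9:44999429-45002985, plus strand), and the cause was not tested. Gzme, a granzyme chosen after its values were seen, was at 153 CPM in members of library 1 against 0.648, 0.973 and 5.78 CPM in the others, and at 35.3 CPM in Cd3d and Trac cells and 11.5 CPM in C1qa and Ptprc cells of library 1.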
